A study of Mus musculus with 6 samples.

Results

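The genes described are the imprinted pair H19 and Igf2, the ligand gene Igf1, the receptor genes Igf1r and Igf2r, and the genes of the IGF-binding proteins Igfbp2, Igfbp3, Igfbp4, Igfbp5 and Igfbp6. They were taken by gene symbol from the deposited expression table, and all 10 were found among its 49592 genes. All 10 also lay above the expression minimum, a mean of at least 0.5 FPKM, together with 12770 genes in all. FPKM is a fragment count divided by transcript length and by a library factor for sequencing depth.

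RNA came from C2C12, an established mouse myoblast line, so every library shares this origin. Cells were grown in 10% fetal bovine serum. They were then kept for 3 days in 2% horse serum, in which they leave the cell cycle and fuse into myotubes. The TWEAK group (3 libraries) then received TWEAK, a TNF-family cytokine, at 10 ng/ml for 12 h, and the untreated group (3 libraries) received none. Libraries are numbered by trial, and whether trials were separate cultures is not stated in the labels; the p-values therefore cover only how these libraries scatter, which may be technical. The comparison addresses which transcripts TWEAK changes while myotubes form.

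IGF1 and IGF2 are secreted ligands that activate the tyrosine kinase IGF1R and, through IRS adaptors, the PI3K-AKT-mTOR and RAS-ERK routes, which drive muscle growth and differentiation. IGF2R binds IGF2 and carries it to lysosomes. The IGF-binding proteins hold the ligands outside the cell and can block or prolong their action. H19 is a noncoding RNA whose gene shares enhancers with Igf2; in the mouse H19 is expressed from the maternal and Igf2 from the paternal chromosome, and H19 also gives rise to the microRNA miR-675.

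The miR-675 precursor is shown because it is a processed product of H19, the most abundant RNA of the group. It is given from RefSeq (GRCm38.p6, minus strand, chr7:142577064-142577147) with both mature arms in capitals, followed by each mature arm with its seed, bases 2 to 8, in capitals. The miRNAs themselves were not analysed here.
mir-675 hairpin: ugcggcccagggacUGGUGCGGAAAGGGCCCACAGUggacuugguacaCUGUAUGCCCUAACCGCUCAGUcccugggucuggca
miR-675-5p: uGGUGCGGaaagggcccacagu
miR-675-3p: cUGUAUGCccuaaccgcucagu
The arms do not share a seed.

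RefSeq start regions, 250 bases before to 50 bases after an annotated start (GRCm38.p6), matched 9 of the 10 genes, with 13 entries in all; H19 had no entry. Those of Igfbp5, its chromosome 1 neighbour Igfbp2 (the first of 2 entries) and Igf1 are shown, because Igfbp5 was the gene that fell, Igfbp2 beside it was not called, and the call of Igf1 depended on the pairing of trials. Capitals mark the E-box CANNTG, the letters that MyoD-family factors bind, which reads alike on both strands.
Igfbp5 (chr1:72874816-72875115, minus strand): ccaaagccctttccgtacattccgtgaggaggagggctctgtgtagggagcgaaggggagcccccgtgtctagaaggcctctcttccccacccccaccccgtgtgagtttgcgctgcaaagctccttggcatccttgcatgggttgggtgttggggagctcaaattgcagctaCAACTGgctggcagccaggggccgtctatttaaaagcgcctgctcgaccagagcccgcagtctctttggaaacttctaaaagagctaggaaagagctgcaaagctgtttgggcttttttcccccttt
Igfbp2 (chr1:72824230-72824529, plus strand): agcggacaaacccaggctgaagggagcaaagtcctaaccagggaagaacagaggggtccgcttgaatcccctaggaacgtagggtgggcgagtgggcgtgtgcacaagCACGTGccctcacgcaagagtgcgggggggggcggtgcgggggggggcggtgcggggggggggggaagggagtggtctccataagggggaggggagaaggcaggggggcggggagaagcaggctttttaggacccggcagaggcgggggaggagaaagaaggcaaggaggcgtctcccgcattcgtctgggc
Igf1 (chr10:87860861-87861160, plus strand): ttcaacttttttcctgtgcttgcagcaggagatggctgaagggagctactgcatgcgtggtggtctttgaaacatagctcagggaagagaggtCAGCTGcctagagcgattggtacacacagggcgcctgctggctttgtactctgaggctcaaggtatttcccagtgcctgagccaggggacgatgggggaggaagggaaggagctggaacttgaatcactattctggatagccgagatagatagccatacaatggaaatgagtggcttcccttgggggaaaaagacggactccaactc
Each of the 3 held 1 E-box. Over the 13 entries, 10 held at least 1, beside 72.3% of 32851 start regions of the same length. A loose form of the NF-kB site, GGG and CC separated by any 5 bases and searched on both strands, were present in 8 of the 13 entries, beside 50.8% of all start regions. They occurred 2 times in the Igfbp5 region, 2 times in the Igfbp2 region shown and 1 time in the Igf1 region, with no overlap with an E-box. The other Igfbp2 entry held 2 E-boxes and 0 matches to the NF-kB form.

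The libraries held 29793465 to 40667595 recovered reads. Marker lists gave the following calls and summed levels. Over all 12770 tested genes, limma called 8.98% higher and 6.1% lower. The shares were 17% and 13.3% at an unadjusted p under 0.05. With trial in the model as a replicate block they were 15.4% and 12.5%. Of 15 myotube markers tested, 1 rose and 3 fell with TWEAK (limma adjusted p under 0.05), and their summed FPKM ran from 21410 to 24762 with TWEAK and from 23716 to 25594 without. Of 12 cycling-cell markers, 10 rose and 0 fell with limma (11 and 0 at an unadjusted p under 0.05, and 12 and 0 with the replicate block), with sums of 318 to 424 FPKM with TWEAK and 194 to 251 without. Of 10 markers of undifferentiated myoblasts, 3 rose and 4 fell, with sums of 97.3 to 119 FPKM with TWEAK and 101 to 123 without. Leukocyte markers summed to at most 1.80 FPKM with TWEAK and 1.77 without (Adgre1 was listed at 0). Adipocyte markers reached 2.16 FPKM with TWEAK and 3.24 without (Plin1 was listed at 0); the 1 tested, Pparg, fell (log2 fold change -0.42, limma adjusted p = 0.0245). Endothelial markers reached 0.0363 FPKM with TWEAK and 0.0722 without. Of 6 tested fibroblast markers 0 passed limma (0 at an unadjusted p under 0.05, and 1 lower with the replicate block), with sums of 511 to 753 FPKM with TWEAK and 633 to 787 without.

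After 12 h of TWEAK, Igfbp5 fell and the other 9 genes did not pass the test. Of the 10 genes, limma called 1 lower and 0 higher at an adjusted p of 0.05; the background over all 12770 tested genes was 6.1% lower and 8.98% higher. At an unadjusted p under 0.05, 3 were lower and 0 higher, beside 13.3% of all tested genes lower and 17% higher. Once trial entered the model as a replicate block, 3 were lower (Igfbp5, H19 and Igf1) and 0 higher, beside 12.5% of all genes lower and 15.4% higher (27.9% in either direction). On recovered reads, limma-voom called 2 of the 10 lower (Igfbp5 and H19) and 0 higher, beside 7.64% of all genes lower. With limma-voom and the block, 5 of the 10 were lower (Igf2 and Igfbp6 in addition) and 0 higher, beside 15.9% of all genes lower (30.9% in either direction). The median log2 fold change of the 10 was -0.20, against 0.01 over all tested genes, and 9 of the 10 lay below 0, against 47.7% of all tested genes. Unless limma-voom, another added value or the authors' table is named, log2 fold changes are differences of log2(FPKM + 1), untreated subtracted from TWEAK. The added 1 understates changes of low genes.

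**Figure D1:**
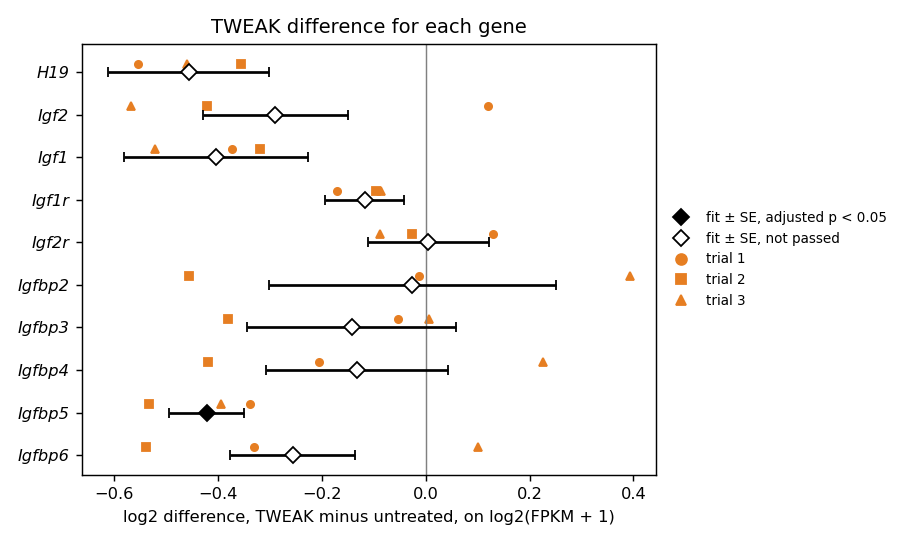
Log2 difference between TWEAK and untreated libraries for each gene (x axis, log2(FPKM + 1) scale); diamonds are the limma estimate with its SE and small orange symbols the difference within trials 1, 2 and 3. Igfbp5 is the filled diamond at -0.42, with all 3 trials below 0; H19, Igf1 and Igf1r also lie below 0 in all 3 trials, and the other genes have trials on both sides.

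H19 is annotated as a long noncoding RNA (ENSMUSG00000000031.17, GRCm39 chromosome 7, 142129266 to 142131880). It had 3753, 3626 and 2998 FPKM in TWEAK libraries of trials 1, 2 and 3, against 5513, 4640 and 4125 FPKM in untreated libraries. Every TWEAK library lay below every untreated one, an ordering that 15.9% of all tested genes also showed. The means were 3459 ± 404 FPKM with TWEAK and 4759 ± 701 FPKM without (SD, n = 3 each), a ratio of 0.727. The short noncoding gene models ENSMUSG00002076121 and ENSMUSG00002075214 lie within H19. They were at 67.9 and 11.5 FPKM with TWEAK and 66.9 and 15.1 without (limma adjusted p of 0.867 and 0.59).

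The log2 fold change of H19 was -0.46 (SE 0.16), and limma gave an adjusted p of 0.0811, so it did not pass. With the replicate block the adjusted p was 0.025, and with limma-voom on recovered reads it was 0.0319. Other limma settings left H19 uncalled, at 0.201 with quantile normalization and 0.476 with no expression minimum. Without single libraries the limma adjusted p ran from 0.0776 to 0.271. In the authors' deposited table the log2 fold change of H19 is -0.46 with an adjusted p of 0.00618, in a fit that held further libraries. Within trials, the log2 differences were -0.55, -0.36 and -0.46. H19 took 0.683% to 0.876% of all recovered reads in TWEAK libraries and 0.940% to 1.25% in untreated libraries. It had the most reads of any gene in 4 of 6 libraries and ranked from 2 to 10 by FPKM.

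**Figure D2:**
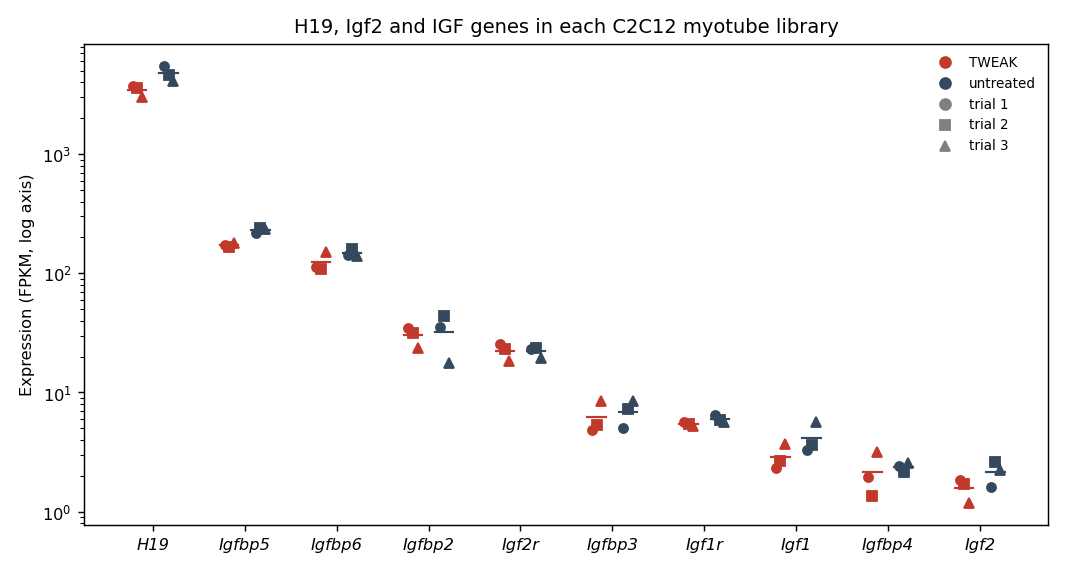
Expression of each gene in every library (y axis, FPKM, log axis), TWEAK in red left of untreated in blue-grey, with short lines at the group means and symbols for the trial. H19 lies above all other genes of the group in every library, and the red and blue-grey symbols of H19 and Igfbp5 do not overlap in height.

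Igf2, the fetal growth factor gene 72622 bases from H19, had the lowest mean FPKM of the 10 genes in both groups (ENSMUSG00000048583.17, GRCm39 chromosome 7, 142204503 to 142220553). It had 1.84, 1.71 and 1.18 FPKM in TWEAK libraries of trials 1, 2 and 3, against 1.61, 2.62 and 2.23 FPKM in untreated libraries. The groups overlapped, because the untreated library of trial 1 lay within the TWEAK range. The ratio of mean FPKM was 0.731, beside 0.727 for H19. The log2 fold change was -0.29 (SE 0.14, limma adjusted p = 0.2), and the difference was below 0 in 2 of 3 trials. The added 1 shrinks this value, and with 0.1 added instead it was -0.43 (limma adjusted p = 0.207). On the log2(FPKM + 1) scale, leaving out TWEAK replicate 3 gave -0.17, and leaving out untreated replicate 2 gave -0.18. On recovered reads, limma-voom gave -0.46, and the authors' deposited table gives -0.45 (adjusted p = 0.0795).

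These values rested on few reads, 264, 280 and 166 in TWEAK libraries and 252, 407 and 427 in untreated libraries. Igf2 overlaps Gm49394, a gene model on the same strand, over 16048 bases, and 62.8% of its exonic bases in GENCODE M21 (GRCm38) are also exonic in Gm49394. Gm49394 itself held 13 reads in the TWEAK libraries together and 20 in the untreated libraries. How reads common to both gene models were counted is not given in the sources used here, so the Igf2 level may be too low and its distance from H19 too large. The ratio of H19 to Igf2 FPKM ran from 2042 to 2541 in TWEAK libraries and from 1769 to 3418 in untreated libraries, and these ranges overlapped. Igf2 also overlaps its antisense gene Igf2os, at 0.0672 FPKM with TWEAK and 0.0613 without.

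Around the pair, 9 listed genes lay within 200 kb. Of 14 tested genes in the wider list of neighbours and imprinted genes of distal chromosome 7, 1 fell and 0 rose with limma (2 and 2 at an unadjusted p under 0.05, and 3 and 2 with the replicate block), with a median log2 fold change of 0.01. Over all tested genes, limma called 6.1% lower and 8.98% higher (13.3% and 17% unadjusted, 12.5% and 15.4% with the block), so counts this small lie near the background. Lsp1, an actin-binding protein gene, was the member that fell, at 42.8 ± 0.761 FPKM with TWEAK and 54.0 ± 4.54 without (SD, n = 3 each; limma adjusted p = 0.0186). That call was lost without TWEAK replicate 2, untreated replicate 1 or untreated replicate 2 (limma adjusted p of 0.0825, 0.0794 and 0.0726). Nctc1, a noncoding RNA gene 16933 bases from H19, stood at 0.944 ± 0.205 FPKM with TWEAK and 1.44 ± 0.220 without (SD, n = 3 each), with a limma adjusted p of 0.0738 and of 0.0143 with the replicate block. Syt8, a synaptotagmin gene, was at 10.6 FPKM with TWEAK and 8.33 without it (adjusted p = 0.0778 by limma, and 0.0208 with the block). Tnnt3 and Tnni2, fast troponin genes, had limma adjusted p values of 0.491 and 0.726. Mrpl23, a mitochondrial ribosomal protein gene 34782 bases from H19, was at 3.93 FPKM with TWEAK and 3.24 without it (adjusted p = 0.189 by limma). Ins2 and Ctsd had limma adjusted p values of 0.707 and 0.602.

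Igf1, the other ligand gene (ENSMUSG00000020053.19, chromosome 10, 87694127 to 87772904), had 2.30, 2.68 and 3.66 FPKM in TWEAK libraries of trials 1, 2 and 3, against 3.28, 3.59 and 5.69 FPKM in untreated libraries. Within each trial the TWEAK library was the lower of the pair, while the groups overlapped because both trial 3 libraries were high. The log2 fold change was -0.40 (SE 0.18) with a limma adjusted p of 0.16, and 0.00159 with the replicate block. Within trials, the log2 differences were -0.37, -0.32 and -0.52. Its call depended on pairing libraries by trial number; the labels give both groups the same numbers but do not say what a trial shares. Without untreated replicate 3 the log2 fold change of Igf1 was -0.21 (limma adjusted p = 0.399). The ratio of Igf1 to Igf2 FPKM lay between 1.25 and 3.10 in TWEAK libraries and between 1.37 and 2.55 in untreated libraries. Igf1os, a noncoding gene that overlaps 5117 bases of Igf1, held 0 reads in the TWEAK libraries together and 2 in the untreated libraries.

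Among the receptors, neither passed in either fit. Igf1r, the signalling receptor (ENSMUSG00000005533.11, chromosome 7, 67602575 to 67883416), had 5.66, 5.40 and 5.26 FPKM in TWEAK libraries of trials 1, 2 and 3, against 6.49, 5.84 and 5.65 FPKM in untreated libraries. It was lower with TWEAK within all 3 trials, but the highest TWEAK value exceeded the lowest untreated value (log2 fold change -0.12, SE 0.08, adjusted p = 0.336 by limma, and 0.228 with the block). Igf2r, the clearance receptor (ENSMUSG00000023830.15, chromosome 17, 12901293 to 12988551), had 25.3, 23.2 and 18.4 FPKM in TWEAK libraries of trials 1, 2 and 3, against 23.0, 23.6 and 19.6 FPKM in untreated libraries. The untreated values lay inside the TWEAK range. The limma estimate was 0.00 (log2, SE 0.12, adjusted p = 0.986), with a sign that turned under several settings. Igf2r was 3.49 to 4.47 times as high as Igf1r per length in TWEAK libraries and 3.47 to 4.05 times in untreated libraries. Airn, the antisense RNA that silences paternal Igf2r in the mouse and overlaps 28354 bases of it, was at 2.90 ± 0.776 FPKM with TWEAK and 3.77 ± 0.799 without (SD, n = 3 each; limma adjusted p = 0.262, and 0.0105 with the block). Whether counting used strand is not given in the sources used here, so Airn reads and those from Igf2r introns cannot be told apart.

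Igfbp5, the binding protein that differentiating myoblasts secrete (ENSMUSG00000026185.9, chromosome 1, 72897091 to 72914043), was the gene that fell. It had 173, 166 and 179 FPKM in TWEAK libraries of trials 1, 2 and 3, against 219.6, 241 and 236 FPKM in untreated libraries. The groups stood clearly apart, and within each group the 3 libraries lay close together. The means were 173 ± 6.32 FPKM with TWEAK and 232 ± 11.3 FPKM without (SD, n = 3 each), a ratio of 0.745, resting on 31672 to 34742 reads in TWEAK libraries and 43635 to 57349 in untreated libraries. The log2 fold change was -0.42 (SE 0.07, limma adjusted p = 0.00586). It stayed below 0.05 without any single library, with limma adjusted p values of 0.00622 to 0.0357, and across the other alternatives at 9.98e-05 to 0.0315. The authors' deposited table gives Igfbp5 a log2 fold change of -0.43 and an adjusted p of 1.56e-06, and 2 of the 10 genes, Igfbp5 and H19, pass 0.05 there, beside 9.38% of 15293 genes lower. In bulk RNA, fewer cells that express a gene and less RNA per cell cannot be told apart. Cycling-cell markers rose in the same libraries, as given above, and their part in the Igfbp5 difference was not tested.

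Igfbp2 lies 5457 bases from Igfbp5 (ENSMUSG00000039323.19, chromosome 1, 72863662 to 72891633). It had 34.8, 31.8 and 23.7 FPKM in TWEAK libraries of trials 1, 2 and 3, against 35.1, 44.0 and 17.8 FPKM in untreated libraries. The untreated values spanned the whole TWEAK range, and the trial 3 libraries were lowest in both groups (log2 fold change -0.03, SE 0.28, adjusted p = 0.961 by limma). Its difference from Igfbp5 was not tested, and its SE was wide enough that a change like that of Igfbp5 could have gone undetected.

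Igfbp6, which binds IGF2 with preference (ENSMUSG00000023046.7, chromosome 15, 102052797 to 102057946), had 113, 109 and 151 FPKM in TWEAK libraries of trials 1, 2 and 3, against 142, 159 and 140 FPKM in untreated libraries. The TWEAK libraries of trials 1 and 2 lay below all untreated ones, and that of trial 3 among them. The log2 fold change was -0.26 (SE 0.12, limma adjusted p = 0.186). Without TWEAK replicate 3 it was -0.40 with a limma adjusted p of 0.0119. With all 6 libraries, limma-voom with the replicate block gave 0.0207, while limma with the block gave 0.0719. Whether Igfbp6 passed thus depended on this library and on the model.

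Igfbp3, whose product is the main carrier of IGFs in serum (ENSMUSG00000020427.12, chromosome 11, 7156086 to 7163923), had 4.85, 5.30 and 8.51 FPKM in TWEAK libraries of trials 1, 2 and 3, against 5.07, 7.20 and 8.48 FPKM in untreated libraries. Igfbp4, whose product inhibits IGF action until the protease PAPP-A cleaves it (ENSMUSG00000017493.13, chromosome 11, 98932070 to 98945218), had 1.97, 1.35 and 3.14 FPKM in TWEAK libraries, against 2.42, 2.14 and 2.54 FPKM in untreated libraries. In both genes the groups overlapped and trial 3 was highest in each group. The limma adjusted p was 0.678 for Igfbp3 and 0.657 for Igfbp4.

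**Figure D3:**
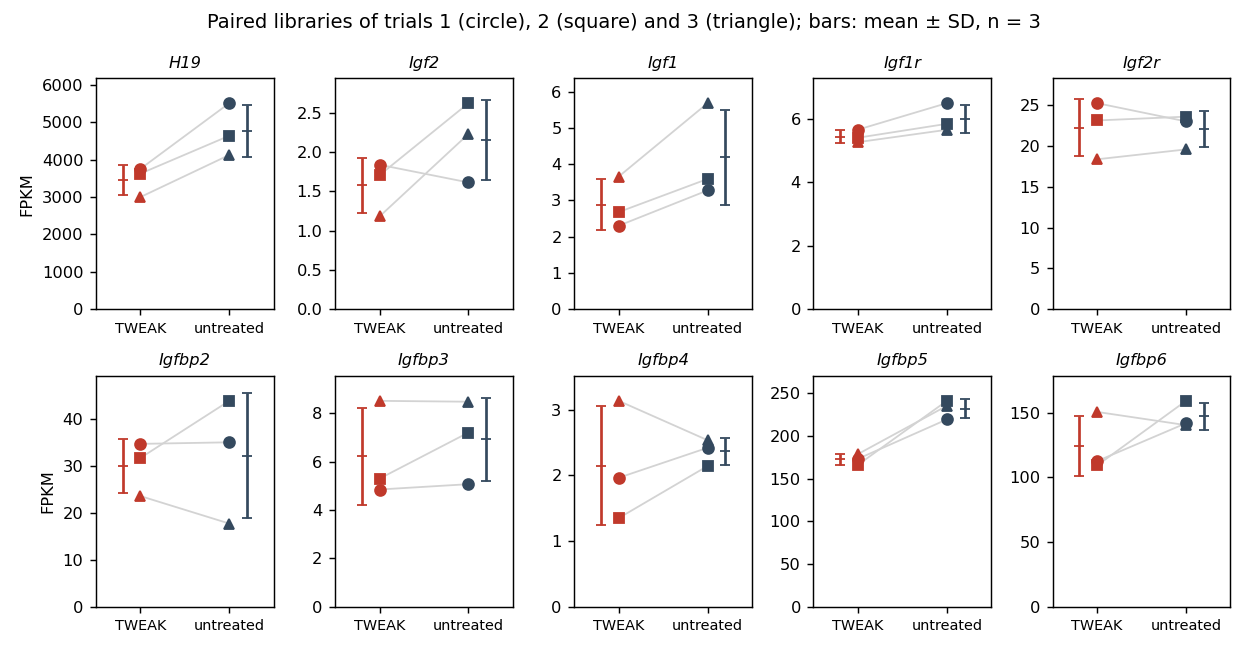
FPKM (y axes from 0) of each gene in TWEAK (red, left) and untreated (blue-grey, right) libraries, with grey lines joining the libraries of a trial and bars for the mean ± SD of 3 libraries. The lines of H19, Igf1, Igf1r and Igfbp5 all run upward to the untreated side, while Igfbp2, Igfbp4 and Igfbp6 have a trial 3 line that runs the other way.

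Summed over the 5 binding protein genes, the level was 336 ± 26.3 FPKM with TWEAK and 421 ± 28.6 FPKM without (SD, n = 3 each). The sum was 328, 314 and 365 FPKM in TWEAK libraries of trials 1, 2 and 3, against 404, 454 and 405 FPKM in untreated libraries, with no overlap. Taken singly, 15.9% of all tested genes showed that ordering. The sum is not a result separate from Igfbp5, its largest part. It also leaves out the related gene Igfbp7, which rose (202 FPKM with TWEAK, 130 without). Igfbp5 made up 49.0% to 53.0% of that sum in TWEAK libraries and 53.2% to 58.2% in untreated libraries. Igfbp6 made up 34.4% to 41.3% in TWEAK libraries and 34.7% to 35.1% in untreated libraries. Igfbp3 and Igfbp4 together gave at most 3.19% with TWEAK and 2.72% without.

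By mean FPKM, the order was the same in both groups: H19, Igfbp5, Igfbp6, Igfbp2, Igf2r, Igfbp3, Igf1r, Igf1, Igfbp4 and Igf2. The libraries of neighbours in this order overlapped for Igfbp2 with Igf2r, Igfbp3 with Igf1r, and Igfbp4 with Igf2 in both groups. They also overlapped for Igf1 with Igfbp4 in TWEAK libraries and for Igf1r with Igf1 in untreated libraries. Trial 3 stood at the same end of both groups for 7 of the 10 genes. It was the highest for Igf1, Igfbp3 and Igfbp4, and the lowest for H19, Igf1r, Igf2r and Igfbp2.

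The genes with the profile nearest to H19 over the 6 libraries, among 5842 genes of at least 10 FPKM, were Ucp2, Mfap3l, Pacs2, Olfm1 and Ccdc8. Their root mean square distances from H19 in centred log2(FPKM + 1) ran from 0.0607 to 0.0758, against a median of 0.309 over all those genes. For Igf2 they were Ptprd, Lrp1, Anxa8, Fn1 and Lrrk1, at 0.0915 to 0.113 against a median of 0.268 over 5843 genes. These genes were picked for their small distance, so the gap from the median is fixed by the choice. The centred values still hold the difference between groups, so genes with a similar TWEAK difference come out near. Shared regulation was not tested.

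Beyond the 10 genes, the list of IGF signal transduction genes held 50 tested members. Of these, 6 fell and 1 rose (limma adjusted p under 0.05), against 6.1% of all genes lower and 8.98% higher, and the list's median was -0.13 (log2). With the replicate block, 16 fell and 2 rose, against 12.5% lower and 15.4% higher over all genes. Leaving out TWEAK replicate 2 or untreated replicate 1 gave 2 that fell, where limma called 343 and 459 of all tested genes lower. Leaving out TWEAK replicate 3 or untreated replicate 3 gave 3, where it called 711 and 559 lower. With all libraries it called 779 lower. With no expression minimum 2 fell, beside 302 of 26302 genes lower. Of the 18 genes called in the 5 lists described here, Deptor, Irs1, Hmga1, Peg3 and Zim1 were still called in that fit. The other 13 had limma adjusted p values of 0.0597 to 0.158.

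Irs1, the adaptor that IGF1R phosphorylates, had 8.72, 7.16 and 6.76 FPKM in TWEAK libraries of trials 1, 2 and 3, against 14.3, 14.3 and 16.6 FPKM in untreated libraries. All TWEAK values lay well below all untreated ones (log2 fold change -0.91, SE 0.10, adjusted p = 0.000577 by limma), and the mean with TWEAK was 0.501 times that without. Deptor, an inhibitor of mTOR, had 18.7, 17.9 and 18.5 FPKM in TWEAK libraries, against 33.4, 33.3 and 34.6 FPKM in untreated libraries (log2 fold change -0.85, SE 0.06, adjusted p = 5.86e-05 by limma). Both calls held without any single library. They are opposite in known role, since IRS1 passes the signal on and DEPTOR restrains it.

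Smaller falls were seen in Pdpk1, the kinase that activates AKT, at 10.8 FPKM with TWEAK and 13.7 without, and in Pik3r1, a regulatory subunit of PI3K, at 8.16 FPKM with TWEAK and 10.3 without it (adjusted p of 0.023 and 0.0369 by limma). Mapk3, which encodes ERK1, rose to 39.9 FPKM with TWEAK, against 33.6 without (limma adjusted p = 0.0426). Pdpk1 no longer passed when TWEAK replicate 2, or untreated replicate 1 or 3, was left out (up to 0.0795). The Pik3r1 call was lost without any library except untreated replicate 2 (up to 0.1), and the Mapk3 call without any except TWEAK replicate 1 (up to 0.14) and with limma-voom (0.053). The insulin receptor gene Insr was at 4.90 FPKM with TWEAK and 5.89 without it (adjusted p = 0.0976 by limma, and 0.0292 with the block). Akt1 and Akt2 had limma adjusted p values of 0.868 and 0.244.

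Of 12 tested genes for other carriers and for proteins that process binding proteins, 1 rose and 2 fell with limma, beside 8.98% of all tested genes higher and 6.1% lower, and the median log2 fold change was -0.13. Igfbp7, a related secreted protein of low IGF affinity, rose to 202 ± 27.6 FPKM with TWEAK, against 130 ± 15.5 without (SD, n = 3 each; log2 fold change 0.63, SE 0.12, limma adjusted p = 0.00813). Every TWEAK library, from 178 to 232 FPKM, lay above every untreated library, from 112 to 142 FPKM. Ccn1, a matrix-associated relative of this family, fell to 72.7 FPKM with TWEAK, against 112 without (limma adjusted p = 0.00817). Stc2, an inhibitor of PAPP-A, fell to 1.97 FPKM with TWEAK, against 3.40 without (limma adjusted p = 0.0241), a call that 4 of the 6 libraries decided (TWEAK replicates 2 and 3 and untreated replicates 1 and 2, up to 0.0949 without each). The protease gene Pappa lay below the expression minimum, at 0.0600 FPKM with TWEAK and 0.154 without.

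Among 8 tested genes for IGF2 mRNA-binding proteins and regulators of H19 and Igf2, 3 rose and 0 fell with limma (3 and 0 at an unadjusted p under 0.05, and 3 and 0 with the block), with a median log2 fold change of 0.07. Of all tested genes, 8.98% rose and 6.1% fell with limma (17% and 13.3% unadjusted, 15.4% and 12.5% with the block). Hmga1, a chromatin architectural protein gene, was at 11.1 ± 1.94 FPKM with TWEAK and 4.93 ± 0.120 without (SD, n = 3 each; limma adjusted p = 0.000632). Dnmt1, which maintains DNA methylation, rose to 18.5 FPKM with TWEAK, against 12.1 without (limma adjusted p = 0.011). Trim28, a corepressor that protects imprints, rose to 62.8 FPKM with TWEAK, against 51.7 without (limma adjusted p = 0.0253), a call lost without TWEAK replicate 2 or untreated replicate 1 or 3 (up to 0.114). Ctcf, the insulator protein that binds between H19 and Igf2, was at 17.6 FPKM with TWEAK and 17.4 without it (adjusted p = 0.89 by limma). Igf2bp2, an IGF2 mRNA-binding protein gene, was at 6.44 FPKM with TWEAK and 6.21 without it (adjusted p = 0.709 by limma).

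Imprinted genes outside distal chromosome 7 numbered 10 among the tested genes, of which limma called 4 lower and 0 higher (4 and 0 at an unadjusted p under 0.05, and 5 and 0 with the block), with a median log2 fold change of -0.23. The background was 6.1% of all tested genes lower and 8.98% higher with limma (13.3% and 17% unadjusted, 12.5% and 15.4% with the block). Peg3, a paternally expressed zinc finger gene, was at 27.2 ± 5.46 FPKM with TWEAK and 49.5 ± 4.43 without (SD, n = 3 each; log2 fold change -0.85, limma adjusted p = 0.00322). Its neighbour Zim1 fell to 5.53 FPKM with TWEAK, against 10.1 without (limma adjusted p = 0.00353). Peg10 fell to 1.31 FPKM with TWEAK, against 2.18 without (limma adjusted p = 0.0105), and Mest to 5.48 FPKM, against 9.39 without (limma adjusted p = 0.0366). For Mest the limma adjusted p exceeded 0.05 (up to 0.12) when 1 of the same 4 libraries named for Stc2 was removed. The block gave 8.11e-06. Removing untreated replicate 2 made the Mest log2 fold change larger in size, at -0.76 against -0.68 with all libraries. The other 3 removals gave -0.61 to -0.48. In these 4 fits limma called 343 to 711 of all tested genes lower, against 779 with all libraries. Dlk1, Meg3, Rtl1 and Magel2 were listed at 0 in all 6 libraries.

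**Figure D4:**
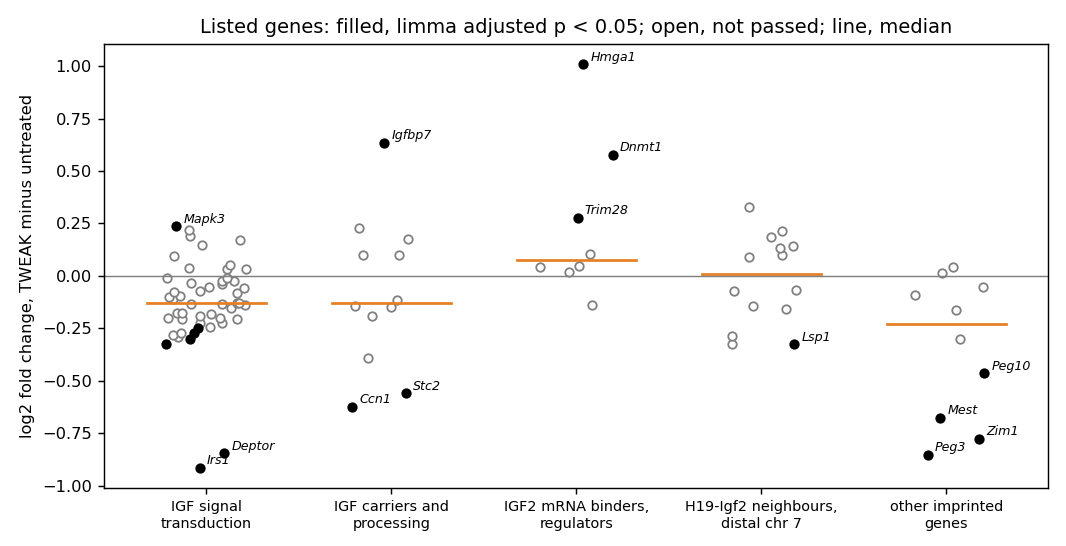
Log2 fold change (y axis, TWEAK minus untreated) of each tested gene in the 5 lists of related genes; filled points passed limma at an adjusted p of 0.05, open points did not, and the orange line is the list median. Irs1 and Deptor lie lowest in the signal transduction list, where 4 further filled points without a name (Pdpk1, Pik3r1, Rptor and Foxo4) lie between -0.33 and -0.25.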

How the data were processed

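The deposited table gives each library's expression as FPKM, per the file headers, and from the authors' own comparison a mean normalized count (here a signal), log2 fold changes with standard errors, a score (the test statistic) and p-values, also per the file headers. Per the submitters' processing notes, the tools were DESeq2 1.22.2, HTSeq 0.6.1p2, STAR 2.6.0c and Trim Galore 0.5.0, and the build was GRCm39. Settings, the annotation release and whether counting used strand: not given in the sources used here. For 2337 genes the authors' mean is above 0 although they are at 0 in all 6 libraries, so their fit held further libraries.

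Reads were recovered from the FPKM steps: 126386 of 126386 non-zero values were whole numbers of reads, to a relative 1e-06. The smallest factor that gave a whole gene length was used. For all 10 genes described, that length equals the longest GENCODE M21 transcript, as it does for 97.9% of 12738 tested genes with an M21 entry.

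Genes averaging 0.5 FPKM or more were fitted as log2(FPKM + 1) with limma-trend (limma 3.58.1, R 4.3.3), with group as the only term. Tests were two-sided, with Benjamini-Hochberg adjustment over all 12770 genes at 0.05; every adjusted p is from limma unless the authors' table is named. The fit was also run on simulated reads with independent libraries and no trial effect, so that run does not bear on pairing by trial. Alternatives were another pseudocount, other expression minimums, 2 rescalings, recovered reads with limma-voom, the replicate block, and leaving out each library. Tables and plots were made in Python 3.11.15 (pandas 2.3.3, numpy 2.4.6, matplotlib 3.10.9).

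Deviations from the group means correlated across 12770 genes between same-numbered libraries at 0.473 (trial 1), 0.218 (trial 2) and 0.434 (trial 3), so the trial numbers were taken to pair libraries; the labels number the trials alike in both groups but do not say what a trial shares. The genes described and the lists were chosen with earlier results of these data known. Named genes were the 10 described, up to 4 risen and 4 fallen genes of each list by adjusted p, listed genes within 200 kb of H19 or Igf2, genes overlapping the 10, and the 5 nearest profiles to H19 and to Igf2. Insr, Akt1, Akt2, Pappa, Ctcf, Igf2bp2, Rptor and Foxo4 were named after their values were seen.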

Additional observations from a re-analysis of the deposited data

How the results depend on the processing

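Igfbp5 kept its direction and its call under all 14 alternatives run. The other 9 genes had 0 calls with limma on all libraries; H19 passed with the replicate block and with limma-voom, Igf1 with the block, and Igf2 and Igfbp6 with limma-voom on recovered reads with the block (adjusted p = 0.018 and 0.0207). The members called lower numbered 1 with all libraries, 3 with the block, 2 with limma-voom and 5 with limma-voom and the block, and 1 to 2 without single libraries; those called higher stayed at 0.

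Over all tested genes, 1147 were higher and 779 lower. The replicate block gave 1965 and 1598, limma-voom with the block 1924 and 2025, and no filter 499 and 302. Without single libraries, 501 to 1266 were higher and 343 to 835 lower. Of the 50 tested signal transduction genes, 1 was higher and 6 lower, beside 8.98% and 6.1% of all tested genes. Limma-voom gave 0 and 12, beside 8.72% and 7.64% of all tested genes. Limma-voom with the block gave 2 and 20, beside 15.1% and 15.9%. The block gave 2 and 16, beside 15.4% and 12.5%. No filter gave 0 and 2, beside 499 and 302 of 26302 genes. Leaving out single libraries gave 0 to 1 and 2 to 6, beside 501 to 1266 and 343 to 835 of all tested genes. The cause was not tested.

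The log2 fold change of Igf2r turned to -0.0103 with median-of-ratios rescaling, -0.0178 with quantile normalization, -0.0124 with limma-voom, -0.0113 with limma-voom and the block, and -0.0889 to -0.0282 without TWEAK replicate 1 or 2 or untreated replicate 3 (range over single libraries -0.0889 to 0.131). Igfbp2 turned to 0.132, 0.0789 and 0.237 without TWEAK replicate 3, untreated replicate 1 and untreated replicate 2 (range -0.393 to 0.237), and Igfbp4 to 0.0583 without TWEAK replicate 2 (range -0.349 to 0.0583). None of these values passed. Quantile normalization moved H19 to -0.33 (adjusted p = 0.201). Igf2, with 166 to 427 reads a library, and Igfbp4 have the widest counting error.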
